A study of Mus musculus with 6 samples.

Results

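TRα, the thyroid hormone receptor encoded by Thra, is a nuclear receptor that binds DNA with and without its hormone. Its peaks were described at 6 genes of fatty acid uptake and lipid handling: Cd36, Ppard, Pparg, Apoa1, Apoe and Lep. A peak belonged to a gene when the annotation text left behind it in the deposited list gave a RefSeq protein of that gene, and this found 97 peaks of 6 genes among 3812 gene-named peaks of 395 genes and 491681 peaks in all. The peaks came from chromatin immunoprecipitation and sequencing (ChIP-seq) of gastrocnemius, the main calf muscle, with 2 mice at each of 6, 15 and 21 months (titles youth, mid and old), and every mouse had its own peak list called against its own input. The mice carried no treatment or engineered allele in the labels, and the sources used here do not state strain or sex. The tissue was whole muscle, so a change in the share of a cell type and a change in occupancy per cell cannot be told apart. The tissue label could not be checked, since peak lists do not measure expression. The annotation text named 0 of 8 skeletal muscle, 1 of 5 adipocyte, 1 of 5 liver and 1 of 4 macrophage markers. The named ones were the members Lep, Apoa1 and Apoe, and being named says nothing about the tissue.

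Cd36 is a membrane glycoprotein that takes up long-chain fatty acids and is abundant in oxidative muscle. Ppard and Pparg encode peroxisome proliferator-activated receptors (PPARs) δ and γ, nuclear receptors that bind fatty acids and, like TRα, pair with retinoid X receptors on DNA. PPARδ drives fatty acid oxidation genes in muscle and PPARγ is the main regulator of adipocyte formation, with Cd36 among their known targets. Apoa1 encodes the main protein of high-density lipoprotein, made by liver and intestine. Apoe encodes an apolipoprotein through which cells take up lipoprotein particles, made by liver and macrophages. Lep encodes leptin, a hormone of adipocytes. Thyroid hormone receptors bind repeats of the half-site AGGTCA, most readily a direct repeat spaced by 4 bases (DR4), and PPARs bind the same repeat spaced by 1 base (DR1).

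The reference promoters of these genes were searched for that half-site because the deposited positions could not be turned into sequence here. RefSeq lists 10 start sites for the 6 genes in GRCm38.p6, and the 250 bases before each were read on both strands. AGGTCA was found in 3 of the 10 windows, of 2 genes, against 14% of 32851 windows of all genes. These 3 windows are shown 5′ to 3′ on the strand of the gene, with the half-site or its complement in capitals. The Cd36 window is chr5:17835897-17836146 on the minus strand, and the Pparg windows are chr6:115360894-115361143 and chr6:115362099-115362348 on the plus strand.
Cd36: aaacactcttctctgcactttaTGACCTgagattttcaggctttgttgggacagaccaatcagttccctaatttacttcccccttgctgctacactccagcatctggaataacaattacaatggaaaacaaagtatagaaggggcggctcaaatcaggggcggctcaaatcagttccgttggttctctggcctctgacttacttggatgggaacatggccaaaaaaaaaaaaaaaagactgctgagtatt
Pparg, first start: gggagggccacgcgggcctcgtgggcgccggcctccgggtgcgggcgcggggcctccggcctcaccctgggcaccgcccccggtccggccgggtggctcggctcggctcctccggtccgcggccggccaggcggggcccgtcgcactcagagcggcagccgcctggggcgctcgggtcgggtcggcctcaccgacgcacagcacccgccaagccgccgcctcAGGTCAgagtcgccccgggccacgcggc
Pparg, next start: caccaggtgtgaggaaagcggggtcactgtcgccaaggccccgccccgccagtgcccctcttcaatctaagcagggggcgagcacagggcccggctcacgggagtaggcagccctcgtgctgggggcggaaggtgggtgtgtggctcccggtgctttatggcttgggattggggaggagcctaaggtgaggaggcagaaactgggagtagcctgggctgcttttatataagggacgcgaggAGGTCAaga

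The Cd36 site began 228 bases before the start and lay on the opposite strand, and the Pparg sites began 28 and 9 bases before their starts. The 2 Pparg windows held 82.4% and 63.6% G and C, and the Cd36 window 43.2%. Neither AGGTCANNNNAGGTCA (DR4) nor AGGTCANAGGTCA (DR1), which contain the half-site, was found in the 10 windows. Over all windows they were found in 0.0152% and 0.0335%. A match describes these letters only, and whether a deposited peak covers one of these windows was not analysed here, since the peaks are on GRCm39.

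The peak lists differed in length and strength before any gene was considered. They held 29405 to 106152 peaks, the shortest in replicate 2 at 15 months. Estimated background, the lowest level in a list per kb of its shortest peak, was 3.23 to 5.49 fragments per kb. It stands in place of read totals and is not a measure of noise. The highest background was in replicate 1 at 6 months, which also had the fewest peaks with a fold over input of at least 10, at 44 against 108 to 211. Counts below are therefore also given per 10000 peaks of the same list, with exact 95% binomial intervals that cover counting error only.

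Cd36 had the most TRα peaks of the 6 genes, 41 in all, and ranked 9 of 395 named genes by number, level with another gene. Peak number went with the stretch of chromosome from first to last assigned peak, which at 188.8 kb was the longest of the 6 for Cd36. The 6-month mice had 8 and 8 peaks, the 15-month mice 9 and 4, and the 21-month mice 4 and 8, with replicate 1 before replicate 2 here and below. Only Cd36 among the 6 genes had peaks in all 6 mice, where 18.5% of the named genes did. Per 10000 peaks of the list the 6-month mice had 1.01 and 0.754, the 15-month mice 0.905 and 1.36, and the 21-month mice 0.436 and 0.930. The highest was in the shortest list (interval 0.371 to 3.48) and the lowest in replicate 1 at 21 months (interval 0.119 to 1.12), and these intervals overlap. The 6-month mean was 0.883 ± 0.183 (SD, n = 2), the 15-month mean 1.13 ± 0.322 (SD, n = 2) and the 21-month mean 0.683 ± 0.349 (SD, n = 2). The ranges of the 3 ages overlapped.

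Pparg had more assigned peaks than Ppard, over a longer stretch of chromosome (95.6 against 27.3 kb). Pparg had 26 peaks: 7 and 2 in the 6-month mice, 5 and 0 in the 15-month mice, and 6 and 6 in the 21-month mice. Per 10000 peaks this was 0.886 and 0.188, then 0.503 and 0, then 0.655 and 0.698, with means of 0.537 ± 0.493, 0.251 ± 0.356 and 0.676 ± 0.0305 (SD, n = 2). The pair at 21 months lay close together, inside the range spanned at 6 months. The count of 0 in the shortest list allows up to 1.02 per 10000, taken as 3 counts of the list, and the exact interval ends at 1.25. Both limits are above every other value of Pparg. Ppard had 9 peaks: 0 and 2 in the 6-month mice, 3 and 1 in the 15-month mice, and 1 and 2 in the 21-month mice. This was 0 and 0.188, then 0.302 and 0.340, then 0.109 and 0.233 per 10000, so that both mice at 15 months were above all others. Each of these Ppard values rests on at most 3 peaks, and the 0 in replicate 1 at 6 months allows up to 0.380 per 10000 by the same 3 counts (exact interval to 0.467), above both values at 15 months.

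Peaks in muscle chromatin were also assigned to the liver and adipocyte genes. The assignment rests on the annotation text and does not place a peak on the gene itself. Apoa1 had 11: 0 and 4 in the 6-month mice, 3 and 1 in the 15-month mice, and 1 and 2 in the 21-month mice. Per 10000 peaks this was 0 and 0.377, 0.302 and 0.340, and 0.109 and 0.233. Except at replicate 2 of 6 months these counts equal those of Ppard. Lep had 8 peaks in 3 mice: 0 and 4 in the 6-month mice, 2 and 0 in the 15-month mice, and 0 and 2 in the 21-month mice. Its presence thus split the 2 mice of every age. Apoe had 2 peaks, 1 in replicate 2 at 6 months and 1 in replicate 1 at 15 months. Summed over genes, the 6-month mice had 15 and 21 member peaks, the 15-month mice 23 and 6, and the 21-month mice 12 and 20. This was 1.31 to 2.33 per 10000 peaks of a list and 1.89% to 2.94% of its gene-named peaks.

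**Figure D1:**
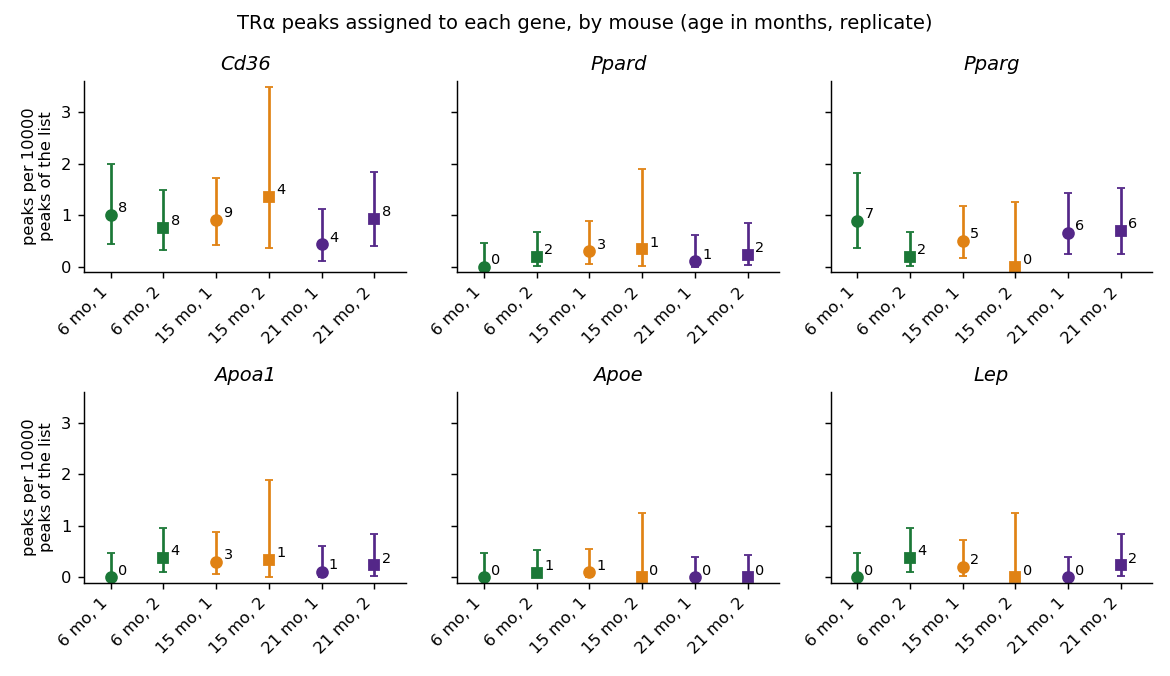
Peaks assigned to each gene per 10000 peaks of the list, by mouse. The colour gives the age and the shape the replicate, bars are exact 95% binomial intervals, and the number beside a point is its count of peaks. Cd36 is above 0 in every mouse, and in replicate 1 at 6 months Ppard, Apoa1, Apoe and Lep are all at 0.

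In replicate 1 at 6 months all 15 member peaks were those of Cd36 and Pparg. The other 4 genes had none there, where the other mice had 11 (replicate 2 at 6 months), 9 and 2 (15 months) and 2 and 6 (21 months). The surroundings were not empty of peaks in that mouse. In a window of 1 Mb centred on each gene's peaks it had 15 peaks around Ppard, 35 around Apoa1, 23 around Apoe and 23 around Lep. Per 10000 peaks of the list the values around Ppard (1.90), Apoe (2.91) and Lep (2.91) were the lowest of the 6 mice, and the value around Apoa1 (4.43) was not, the range there being 2.72 to 5.13. This mouse has the highest estimated background, which stands in place of read totals, and the fewest peaks with a fold of at least 10. The part of these in the 4 zeros was not tested.

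No gene's peak frequency was shown to change with age. Pearson's r of peaks per 10000 with age was tested by two-sided exact permutation over the 90 assignments of ages to mice, with Benjamini-Hochberg adjustment over the 265 named genes that had peaks in at least 3 mice. The call rate was 0% of the 265, with 9 genes at an unadjusted exact permutation p under 0.05 by r and 2 by Spearman's rho. The smallest p that this design gives is 0.0111. After adjustment over 265 genes, a single gene at that p cannot reach 0.05. The absence of calls was thus nearly fixed by the design and does not show a stable peak frequency. Of the members, 5 were tested and Apoe, with peaks in 2 mice, was not.

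Cd36 had r = -0.224 (exact permutation p = 0.678, adjusted 1) and rho = -0.239 (exact permutation p = 0.711, adjusted 1), and r was -0.687 without the youngest pair, whose age is farthest from the median. Ppard had r = 0.359 (exact permutation p = 0.5, adjusted 1) and rho = 0.239 (exact permutation p = 0.711, adjusted 1), with r = -0.854 without the youngest pair. Pparg had r = 0.122 (exact permutation p = 0.822, adjusted 1) and rho = 0.120 (exact permutation p = 0.844, adjusted 1), with r = 0.766 without them. The sign for Ppard therefore rests on the youngest mice. Apoa1 had r = 0.00387 (exact permutation p = 1, adjusted 1) and rho = -0.239 (exact permutation p = 0.711, adjusted 1), with r = -0.854 without the youngest mice. Lep had r = -0.220 (exact permutation p = 0.7, adjusted 1) and rho = -0.127 (exact permutation p = 1, adjusted 1), with r = 0.0722 without them. Of these 5 genes, Cd36, Apoa1, Lep and Pparg had an absolute r below 0.25, and Ppard the largest.

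No member was present in every mouse of one age and absent from every mouse of another. Among all 395 named genes, 3.29% had peaks at 6 and not at 15 months by this rule and 2.03% the reverse. Between 6 and 21 months 3.04% had them at the younger age alone and 2.28% at the older alone. Between 15 and 21 months 2.03% and 4.56% did. With shares this low, 0 of 6 genes is close to the background. The 3 splits of 4 mice give a smallest exact permutation p of 0.333, so no test between 2 ages was made. At a pileup of at least 5, Ppard was present in the 15- and 21-month mice alike and absent from the 6-month pair, where 2.03% and 2.28% of the named genes were. Leaving out a mouse loosens the rule, since 1 mouse then stands for its age. Without replicate 2 at 6 months, Ppard and Apoa1 were present at 15 months (7.09% of named genes) and at 21 months (10.1%) and absent at 6 months. Without replicate 1 at 15 months, Pparg was absent at 15 months and present at 6 months (19% of named genes) and at 21 months (18%). Apoe was present at 6 and absent at 21 months without replicate 1 at 6 months (11.4%), and present at 15 and absent at 21 months without replicate 2 at 15 months (9.87%).

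The peaks themselves were shallow. Pileup, the fragment depth at a summit, ran from 3 to 9, and 18.6% of the 97 peaks had 3 fragments and 46.4% had 4, against 18.7% and 38.7% of all gene-named peaks. Fold over input ran from 2.20 to 4.13 with a median of 2.83, against 2.82 for all gene-named peaks. None of the 97 reached a q of at most 0.05, which 76 of the 3812 gene-named peaks (1.99%) and 2.21% of all peaks did. By gene, 13.7% of the named genes had at least 1 such peak, and none of the 6 did. The lowest q among the members was 0.0807. Ranked by fold within its own list, the median member peak stood at percentile 51.2, the same as for all gene-named peaks, and 7 of 97 (7.22%) were in the top 10%, against 10.6%. Local input background was at the lowest level of the list at 50 of the 97 peaks (51.5%), against 44.1% of all gene-named peaks, and at least 2 times that level at 2 peaks.

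**Figure D2:**
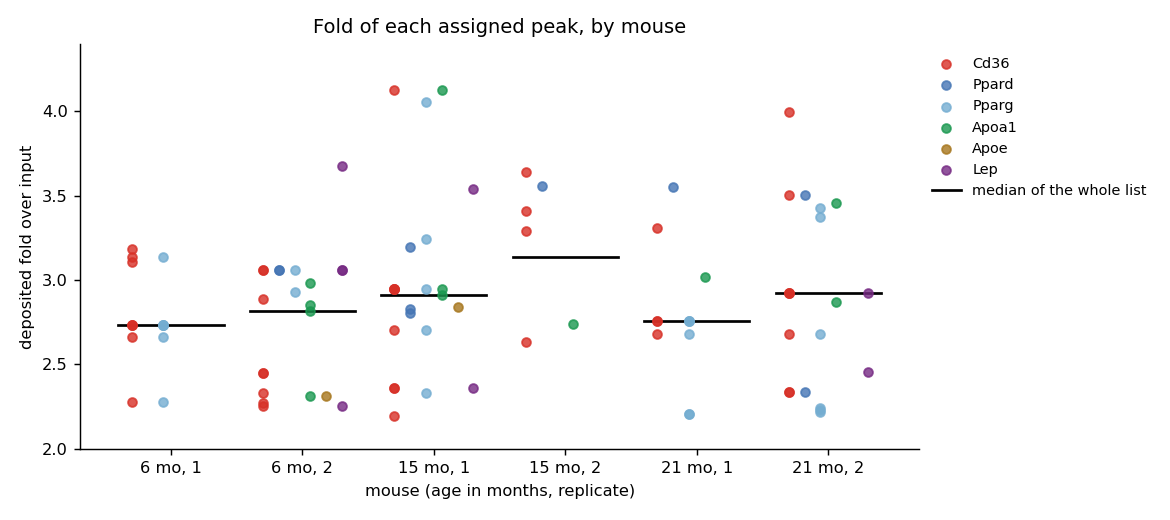
Deposited fold over input of every member peak, by mouse, coloured by gene, with the median of the whole list as a black line. The points lie on both sides of the line in all 6 lists, between 2.20 and 4.13.

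The strongest single peaks were in replicate 1 at 15 months for 4 of the genes. The best Cd36 peak was at chromosome 5, 17972151 to 17972428 (GRCm39), with a pileup of 6 and a fold of 4.13. The best Apoa1 peak, at chromosome 9, 46122840 to 46123325, had the same pileup, fold and −log10 q of 1.09. The best Pparg peak was at chromosome 6, 115355302 to 115355567, with a pileup of 6 and a fold of 4.05. These are the 3 member peaks with q nearest to 0.05. The best Apoe peak, in the same mouse at chromosome 7, 19430701 to 19430915, had a pileup of 4 and a fold of 2.84. The best Lep peak was in replicate 2 at 6 months at chromosome 6, 29067634 to 29068035, with a pileup of 5 and a fold of 3.67. The best Ppard peak was in replicate 2 at 15 months at chromosome 17, 28487770 to 28488042, with a pileup of 6 and a fold of 3.56. None of these 6 peaks overlapped a peak of another mouse. The widest pileup at a member, 9, was a Ppard peak of replicate 1 at 15 months whose background was 3.06 times the lowest level, and its fold was 3.20.

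Member peaks recurred between mice at few positions. The 97 peaks formed 89 regions when peaks overlapping by at least 1 bp were joined, and 8 of the 89 (8.99%) had peaks of 2 mice. Of all 3588 gene-named regions, 198 (5.52%) had peaks of 2 or more mice, and of all 458111 regions 6.40% did. None of the member regions had peaks of 3 mice, which 0.530% of gene-named regions had. Of the 8, 4 were at Cd36, 2 at Ppard and 2 at Pparg, and none at Apoa1, Apoe or Lep. Only 1 of the 8 joined mice of the same age, where 3 of the 15 pairs of mice are of the same age. Replicate 1 at 6 months took part in 5 of the 8, and without it 3 remained.

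The region shared within an age was at Pparg, chromosome 6, 115359556 to 115359852, in both mice at 6 months. The 2 peaks overlapped by 254 bp, their summits were 48 bp apart and their folds were 2.73 and 3.06. A further Pparg region lay within 1 kb of it, at 115358621 to 115358971, shared by replicate 1 at 6 months and replicate 1 at 21 months, with folds of 2.73 and 2.76. At Ppard, chromosome 17, 28487104 to 28487610 was shared by replicate 1 at 15 months and replicate 1 at 21 months. The folds were 3.20 and 3.55, the highest pair of folds among the 8. Local background there was 3.06 and 1.19 times the lowest level of the list, the former being the highest of any member peak. The other Ppard region, 28479627 to 28480134, joined replicate 1 at 15 months and replicate 2 at 21 months over 51 bp, the smallest overlap of the 8, with folds of 2.80 and 2.34. Both Ppard regions thus joined the 15- and 21-month ages.

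Replicate 1 at 6 months and replicate 2 at 15 months shared 2 neighbouring positions of Cd36 on chromosome 5. The first, 18004313 to 18004901, had folds of 3.11 and 3.41, with summits 372 bp apart. Local background there was 1.05 and 1.64 times the lowest level of the list. The other, 18006443 to 18006700, had folds of 2.28 and 2.63 and an overlap of 207 bp. A Cd36 region at 18104235 to 18104679 was shared by replicate 2 at 6 months and replicate 2 at 21 months, with folds of 2.25 and 2.92. The last, 18115141 to 18115456, was shared by replicate 1 at 6 months and replicate 1 at 21 months, with folds of 3.14 and 2.76 and summits 57 bp apart. None of the 4 Cd36 regions joined mice of the same age.

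Some member peaks lay side by side without overlapping. When peaks were chained across gaps of up to 500 bp, a choice made after seeing the data, 13 of 81 member groups (16.0%) held peaks of at least 2 mice, against 12.2% of all gene-named groups. Peaks of 3 mice were held by 3 member groups (3.70%), against 1.71%. At Ppard, chromosome 17, 28487104 to 28488042 held peaks of both mice at 15 months and of replicate 1 at 21 months, with folds of 3.20 to 3.56. At Cd36, chromosome 5, 18004313 to 18005430 held peaks of both mice at 15 months and of replicate 1 at 6 months, and 18114689 to 18115456 held peaks of both mice at 21 months and of replicate 1 at 6 months. The folds in the latter were 2.76 to 4.00. Local background differed between these 3 groups. It reached 3.06 times the lowest level of the list in the Ppard group, in replicate 1 at 15 months. In the first Cd36 group it was 1.84 and 1.64 times that level in replicates 1 and 2 at 15 months. In the last it was at most 1.06 times. The part of background in this recurrence was not tested.

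**Figure D3:**
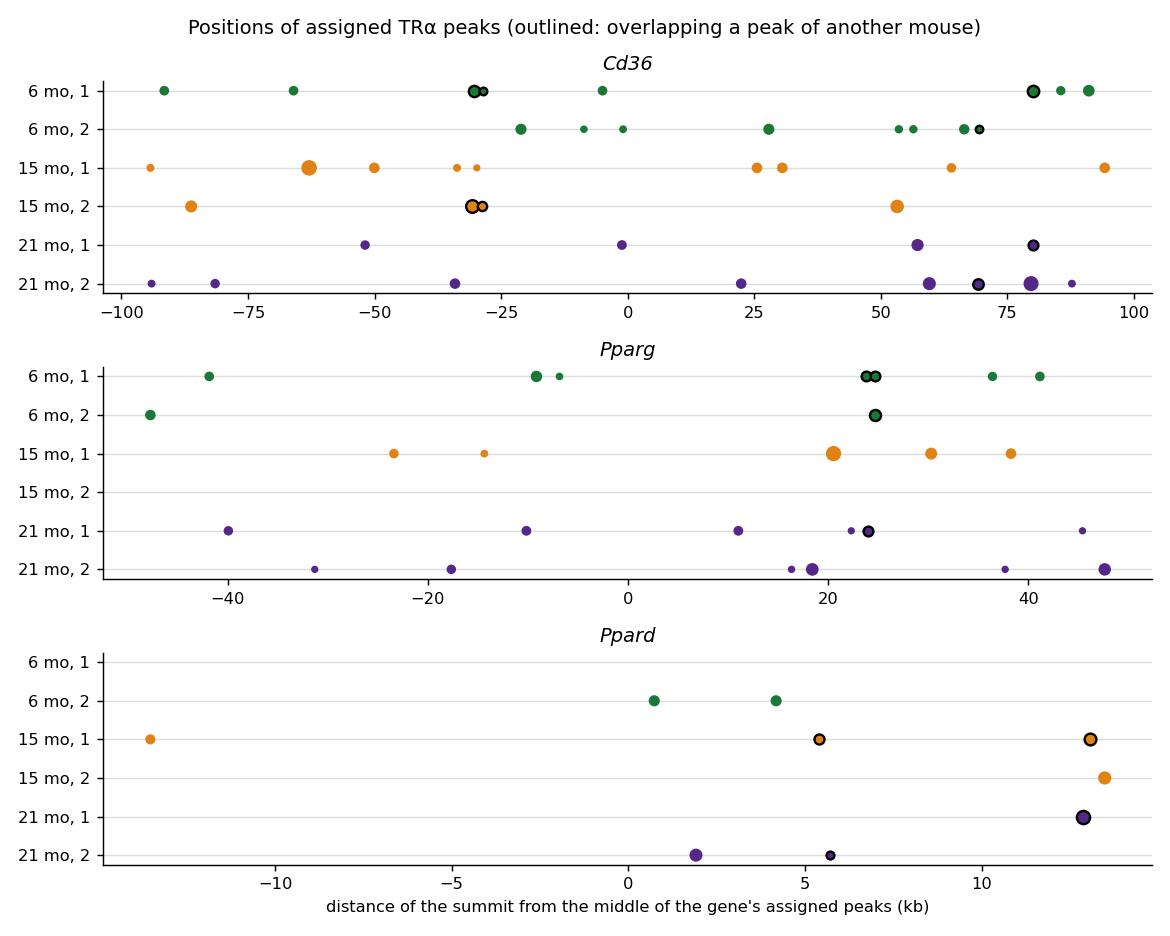
Summits of the assigned peaks of Cd36, Pparg and Ppard by mouse, as distance in kb from the middle of the gene's assigned peaks; a larger point has a higher fold, and a black outline marks a peak overlapping one of another mouse. Most points have no outline: 4 positions of Cd36, 2 of Pparg and 2 of Ppard are shared by 2 mice.

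Each gene name covered an unbroken stretch of chromosome. In the stretch from the first to the last assigned peak, every peak of every mouse carried the member's name, for all 6 genes. The stretch was 188.8 kb for Cd36 on chromosome 5 (17940793 to 18129577), 95.6 kb for Pparg on chromosome 6 (115287094 to 115382709), 93.0 kb for Apoa1 on chromosome 9 (46040760 to 46133728) and 39.4 kb for Lep on chromosome 6 (29047625 to 29086992). It was 27.3 kb for Ppard on chromosome 17 (28460715 to 28488042) and 6.58 kb for Apoe on chromosome 7 (19430701 to 19437278). Flanking protein-coding genes in the RefSeq order of GRCm38.p6, Sema3c and Gnat3 for Cd36, Sik3 and Apoc3 for Apoa1, Lrrc4 and Rbm28 for Lep, Def6 and Fance for Ppard, and Apoc1 and Tomm40 for Apoe, were not named by the annotation text. A position in an exon, intron or promoter was not analysed here.

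The number of peaks went with the length of the stretch. Over the 343 named genes with at least 2 peaks, Pearson's r between the logarithms of both quantities was 0.886 and Spearman's rho 0.913, as a description across genes that share the same 6 lists and whose stretch is itself set by the peaks. The density over chromosomes 1 to 19, X and Y was 18.4 peaks per 100 kb, summed over the 6 mice. Within their own stretch, Ppard had 32.9 peaks per 100 kb, Apoe 30.4, Pparg 27.2, Cd36 21.7, Lep 20.3 and Apoa1 11.8. A stretch that starts and ends at a peak raises this density, and its median over the 343 named genes was 24.7. Cd36, Lep and Apoa1 were below that median, and Ppard, Apoe and Pparg above it. Measured instead between the nearest peaks without the member's name on either side, Pparg had 20.5, Cd36 20.4, Lep 14.3, Ppard 13.4, Apoa1 8.48 and Apoe 4.47. Cd36 and Pparg were above, and Apoa1 below, the density of all chromosomes by both measures. Ppard, Apoe and Lep were above it by the first measure and below it by the other.

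**Figure D4:**
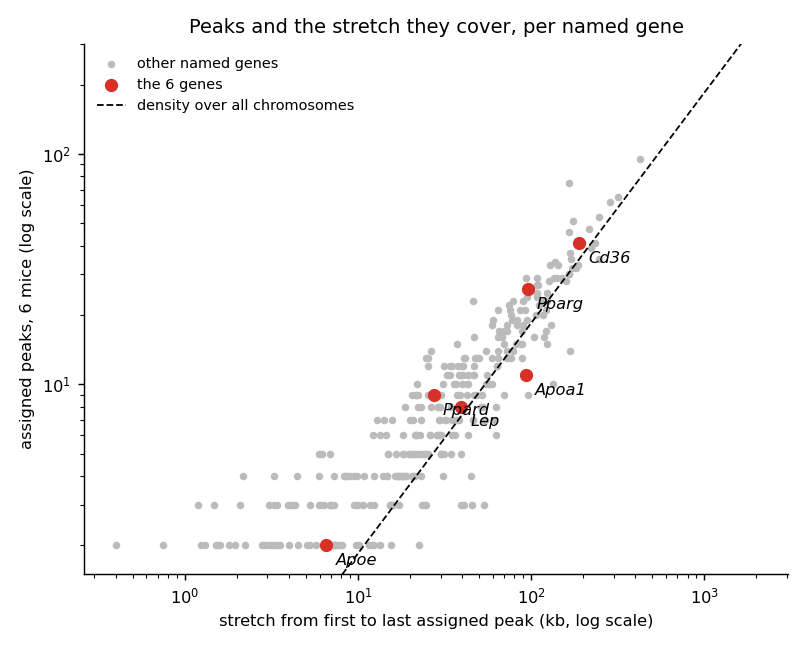
Number of assigned peaks over 6 mice against the stretch from first to last assigned peak, both on log scales, for named genes with at least 2 peaks; red points are the 6 genes, grey points the others, and the dashed line is 18.4 peaks per 100 kb. Apoa1 lies below the line and the other 5 genes lie above it.

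Of 79 genes listed for fatty acid transport, PPAR action and lipoproteins, 13 were named, the 6 members and 7 others. The trend test called 0 of the 9 that could be tested, 5 with r above 0 and 4 below, and their median r was 0.00387 against 0.0305 over all 265 genes. Ppargc1a, a coactivator of PPARs, had 5 and 9, 4 and 2, and 8 and 7 peaks in the 6-, 15- and 21-month mice. Rxra, the shared partner of PPARs and TRα, had 2 and 2, 2 and 1, and 3 and 4, with r = 0.729 (exact permutation p = 0.122, adjusted 1). Cav1, a caveolar protein that takes part in fatty acid uptake, had 2 and 2, 1 and 1, and 1 and 0, with r = -0.569 (exact permutation p = 0.244, adjusted 1).

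Scarb2, a lysosomal membrane protein of the same family as Cd36, had 3 and 2, 1 and 0, and 0 and 0 peaks. Its r of -0.867 (exact permutation p = 0.0333, adjusted 1) was the largest of the list. Both mice at 6 months had more Scarb2 peaks than any older mouse, from 6 peaks in all. The 0 in the shortest list allows up to 1.02 per 10000, taken as 3 counts of that list. Of the 265 tested genes, 3.40% had an unadjusted exact permutation p under 0.05. Nr1h2, a liver X receptor, and Vldlr, a receptor for triglyceride-rich lipoproteins, had 2 peaks each. The 68 peaks of these 7 genes had folds of 2.20 to 3.94, and none reached q of at most 0.05. The other 66 listed genes, Ppara and Lpl among them, were not named and were not analysed here.

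The named genes whose peaks per 10000 followed those of Cd36 most closely over the 6 mice were Sfrp1 (Pearson's r = 0.961), Gli2 (0.934) and Foxp2 (0.880), out of 108 genes with at least 12 peaks. Sfrp1, a secreted Wnt modulator, had 0.759 and 0.471 per 10000 in the 6-month mice, 0.704 and 1.36 in the 15-month mice, and 0.327 and 0.814 in the 21-month mice. All 3 genes, like Cd36, were highest in the shortest list and lowest in replicate 1 at 21 months. These values come from the same 6 lists and divide by the same list lengths.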

How the data were processed

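TRα ChIP-seq peak lists of 6 mice, 2 per age, were used. The submitters' processing notes list, without roles or options, Trimmomatic 0.36, then SAMtools 1.3.1, MACS2 2.1.1.20160309, HOMER and the builds GRCm39 and mm10; the sources used here name no aligner. The pileup deposited by the authors is a signal, in fragments at the summit. The fold that the authors deposited divides pileup plus 1 by local input background plus 1. Each peak also has −log10 p and −log10 q, as the authors deposited them, and the lists reach p of 0.01. These belong to single peaks and describe or rank peaks within a list. Among the peaks, 29 lie on 2 scaffolds named as in GRCm39, so coordinates are given as GRCm39. Browser-format files held the same peaks in all 6 lists.

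Each peak took the gene whose RefSeq protein accession stood in the annotation text below it, through a GRCm38.p6 table used for names and gene order. Such text followed 3987 of 491681 peaks and named 1 gene for 3812, so genes without such text are not seen. Background was recovered as (pileup + 1) / fold − 1, and its Poisson p matched the deposited p within 1% for 100% of peaks. Peaks were joined at an overlap of 1 bp. Trend tests were run with Python 3.11.15 and SciPy 1.17.1 and checked on simulated data. The changed genes in that simulation had far more peaks than the real ones. The check therefore does not show what could be detected at the depth of these lists. The sample titles number the 2 replicates of an age, and these were taken here as separate mice. The genes named are the 6 members, listed pathway genes that the text names, and the 3 genes most like Cd36. Their peaks named are those shared between mice, with q of at most 0.05 or of highest fold. The members, lists and tests were chosen with earlier results of these data known. Alternatives were limits on q and pileup, equal list lengths, rank correlation, scaling, a filter, other overlap rules, a replicate block and leaving out each mouse. Of the listed pathway genes and the genes flanking a member, some are not reported here.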

Additional observations from a re-analysis of the deposited data

How the results depend on the processing

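The depth limits these results, since most member peaks rest on 3 or 4 fragments and a missing peak does not show missing binding. The 97 member peaks became 0 at q of at most 0.05, 34 at a pileup of at least 5 and 25 with every list cut to 29405 peaks, and 74 to 91 without 1 mouse. The 8 shared regions became 0, 2 and 2 under those 3 limits, 4 with a reciprocal overlap of at least 50%, 2 with summits within 100 bp, 13 with gaps of up to 500 bp, and 3 to 6 without 1 mouse. The fall to 3 came without replicate 1 at 6 months and a fall to 5 without replicate 1 at 21 months. The 0 members present throughout one age and absent throughout another became 2 at a pileup of at least 5 (Ppard and Apoa1, present at 21 and absent at 6 months, where 2.28% of named genes were, and Ppard also at 15 and not at 6 months, where 2.03% were) and 2 with equal lists (Ppard and Apoa1, present at 15 and absent at 6 months, where 4.56% were, and Ppard also at 21 and not at 6 months, where 3.29% were), and 0 to 2 without 1 mouse, the 2 being Ppard and Apoa1 without replicate 2 at 6 months, present at 15 and at 21 months, where 7.09% and 10.1% of named genes then were. Limits and left-out mice remove peaks by construction.

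No gene passed the trend test in any alternative, and the lowest adjusted exact permutation p of a member was 0.977. Leaving out a mouse or using the replicate block leaves fewer assignments of ages, so a single gene could not pass there either. Of 55 alternative trend values of members, 43 kept their sign and 12 turned it. Pparg turned to r = -0.105 at a pileup of at least 5, Cd36 to 0.0402 with equal lists and Apoa1 to rho = -0.239, and the cause was not tested. Without 1 mouse r ran from -0.455 to 0.272 for Cd36, -0.155 to 0.652 for Ppard, -0.182 to 0.696 for Pparg and -0.831 to 0.422 for Apoa1. For Lep r ran from -0.623 to -0.0120 over the 3 mice whose absence left Lep testable. With no filter Apoe had r = -0.384 (exact permutation, adjusted p = 1). With the replicate block (36 assignments) 0 genes passed, and r was -0.246 for Cd36, 0.417 for Ppard, 0.158 for Pparg, 0.00525 for Apoa1 and -0.249 for Lep. The deviations of same-numbered mice correlated at -0.0125, -0.139 and 0.0355 over 265 genes. The peak counts behind them are small, so these values do not decide whether the replicate numbers mark pairs.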
